A study of Mus musculus with 32 samples.

Results

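Glutathione peroxidases and other selenoproteins were followed through RNA pulled down with an antibody against N6-methyladenosine (m6A), the commonest internal methylation of messenger RNA. The members are the 9 genes Gpx1, Gpx3, Gpx4, Selenop, Selenow, Txnrd1, Txnrd2, Dio1 and Dio2, taken by their symbols from a table of 27179 genes. Each symbol matched 1 gene, and all 9 were among the 14864 genes tested. The pulldown (MeRIP-Seq) was made on mouse brain, heart, kidney and liver. Each organ was either fixed in 10% formalin and embedded in paraffin (FFPE, the standard way of storing tissue for histology) or flash frozen. The 8 groups are FFPE brain, FFPE heart, FFPE kidney, FFPE liver, frozen brain, frozen heart, frozen kidney and frozen liver, with 1 column of values each, called a library below. RNA of every group was isolated with Trizol and sheared with ultrasound for 20 min, and FFPE tissue was deparaffinized first. The labels give no strain, age, sex or number of mice.

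Selenoproteins carry selenocysteine, an amino acid in which selenium takes the place of sulfur. A codon that otherwise ends translation is read as selenocysteine when the message holds a hairpin in its untranslated tail and a dedicated set of factors is present. Liver packs dietary selenium into selenoprotein P and secretes it, and receptors of the lipoprotein receptor family take it up in brain, kidney and testis. Glutathione peroxidases use glutathione to reduce peroxides, thioredoxin reductases keep thioredoxin reduced, and deiodinases remove iodine from thyroid hormones, which activates or inactivates them.

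The windows before the annotated starts are shown first for the genes that differed most between organs in both preservations (Gpx3, Dio1 and Dio2). A window of Txnrd1 is added because it alone held an antioxidant response element, the letters to which the stress factor NRF2 is known to bind. The sequences are RefSeq's for GRCm38.p6, run 5′ to 3′ along the gene's strand and end at the base before the start. Capitals mark the motif letters found in them.
Gpx3 chr11:54902604-54902853, plus strand: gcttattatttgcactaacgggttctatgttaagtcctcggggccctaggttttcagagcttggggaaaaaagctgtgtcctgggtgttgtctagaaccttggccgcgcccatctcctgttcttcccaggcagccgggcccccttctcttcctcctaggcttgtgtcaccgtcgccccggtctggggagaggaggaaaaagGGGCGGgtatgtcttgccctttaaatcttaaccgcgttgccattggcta
Dio1 chr4:107307169-107307418, minus strand: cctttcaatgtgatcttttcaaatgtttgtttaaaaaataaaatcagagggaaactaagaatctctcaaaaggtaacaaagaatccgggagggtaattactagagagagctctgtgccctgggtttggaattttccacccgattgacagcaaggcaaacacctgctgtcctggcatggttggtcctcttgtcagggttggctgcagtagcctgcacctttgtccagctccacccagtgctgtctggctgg
Dio2 chr12:90739039-90739288, minus strand: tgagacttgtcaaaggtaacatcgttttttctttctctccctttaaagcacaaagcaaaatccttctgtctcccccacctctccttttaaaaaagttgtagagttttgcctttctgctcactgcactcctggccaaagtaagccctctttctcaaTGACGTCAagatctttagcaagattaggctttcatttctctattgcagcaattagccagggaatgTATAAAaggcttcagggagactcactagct
Txnrd1 chr10:82858956-82859205, plus strand: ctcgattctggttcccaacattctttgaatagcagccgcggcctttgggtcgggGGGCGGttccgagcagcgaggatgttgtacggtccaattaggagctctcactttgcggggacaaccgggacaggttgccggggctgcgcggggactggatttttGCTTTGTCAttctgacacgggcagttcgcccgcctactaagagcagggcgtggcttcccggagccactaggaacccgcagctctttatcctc

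The 9 genes had 16 such windows of 250 bases, since Gpx4, Selenop and Txnrd1 have several annotated starts and some of their windows overlap. Both strands were searched for 4 motifs, and no 2 matches overlapped in the windows shown. The GC box GGGCGG was in 6 of the 16 windows, those of Gpx3, Gpx4, Txnrd1 and Txnrd2, and in 32.7% of all 32851 windows. In the Gpx3 window it began 49 bases before the start. The TATA box TATAAA was in 2 windows, beginning 30 bases before the start of Dio2 and 10 bases before 1 start of Selenop, and in 12.4% of all windows. Dio2 also held the cAMP response element TGACGTCA, beginning 95 bases before its start, which was in 1.55% of all windows. In the Txnrd1 window the antioxidant response element TGACNNNGC was on the minus strand, beginning 92 bases before the start, and 10.2% of all windows held it. None of the 4 motifs was in the Dio1 window. These are matches of letters and were not tested for use.

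The smallest library, FFPE brain, held 9603050 recovered gene counts and the largest, frozen brain, 21523379, and 3050241 (FFPE liver) to 8004550 (frozen brain) remained outside 4 ribosomal RNA genes. A count of 3 corresponds to a log2 level of -3.29 in frozen brain and -0.86 in FFPE liver, the extremes over the 8 libraries. The organ labels matched the defining markers: summed scaled CPM of cardiomyocyte markers were 41840 in FFPE heart and 36770 in frozen heart, against 28.9 to 128 elsewhere. Hepatocyte markers summed to 25520 in FFPE liver and 28220 in frozen liver, proximal tubule markers to 2275 in FFPE kidney and 1381 in frozen kidney, and neuron markers to 679 in FFPE brain and 847 in frozen brain. Preservation could not be told apart from the mice used. Xist, the RNA of the inactive X chromosome, had 2693 to 6685 counts in the FFPE libraries and 5 to 26 in the frozen ones. The Y-linked gene Ddx3y had 43 to 125 counts in the FFPE libraries and 294 to 700 in the frozen ones. Y-linked Eif2s3y, Kdm5d and Uty had 46 to 122, 38 to 132 and 31 to 147 counts in FFPE libraries. In frozen libraries they had 98 to 224, 73 to 296 and 77 to 330, so these ranges overlapped. The FFPE libraries thus held both Xist and Y-linked RNA. None of these counts is scaled for depth.

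A level below is a log2 normalised count, that is, log2 CPM against a scaled library size, with 0.5 added to the count. It measures a transcript's counts in the pulldown relative to that scaled size, which is not its share of the pulled-down RNA. Divided by the recovered gene counts of the same library, the scaled size came to 2.24 in FFPE brain, the highest ratio. The lowest ratio was 0.43, in FFPE liver. Scaling by total gene counts, an alternative used below, compares shares of the recovered gene counts instead. Input libraries were not analysed here, so abundance and methylation were not separated. In bulk tissue, fewer cells of a type and less RNA per cell cannot be told apart. No exon lengths were used, so levels are compared between libraries of 1 gene and never between genes.

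The first comparison asked in which organs each gene stood out. Liver was the highest organ for 5 genes (Gpx1, Selenop, Txnrd1, Txnrd2 and Dio1), brain for Selenow and Dio2, and kidney for Gpx3, each in both preservations. Gpx4 alone had a different highest organ in each, heart in FFPE tissue and liver in frozen tissue. In liver, both libraries lay above the other 6 for these 5 genes (15% of all tested genes did so in liver). In brain, both libraries lay above the other 6 for Selenow and Dio2 (26.6% of all genes) and below them for Gpx3, Selenop and Txnrd2 (14.8% of all genes). Dio1 is left out there because brain and heart both had 0 counts. Kidney stood above all others for Gpx3 (10.1% of all genes) and below for Selenow (4.04%). Heart stood above the others for none of the 9 (11.3% of all genes) and below for none (8.95%), and liver below for none (15.2%). The full order of the 4 organs was the same in FFPE and frozen tissue for 5 of the 9 members, against 31.3% of all tested genes, an order between organs at 0 counts not being counted. Gpx1, Gpx4 and Dio2 changed order, and Dio1 had no order between heart and brain.

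**Figure D1:**
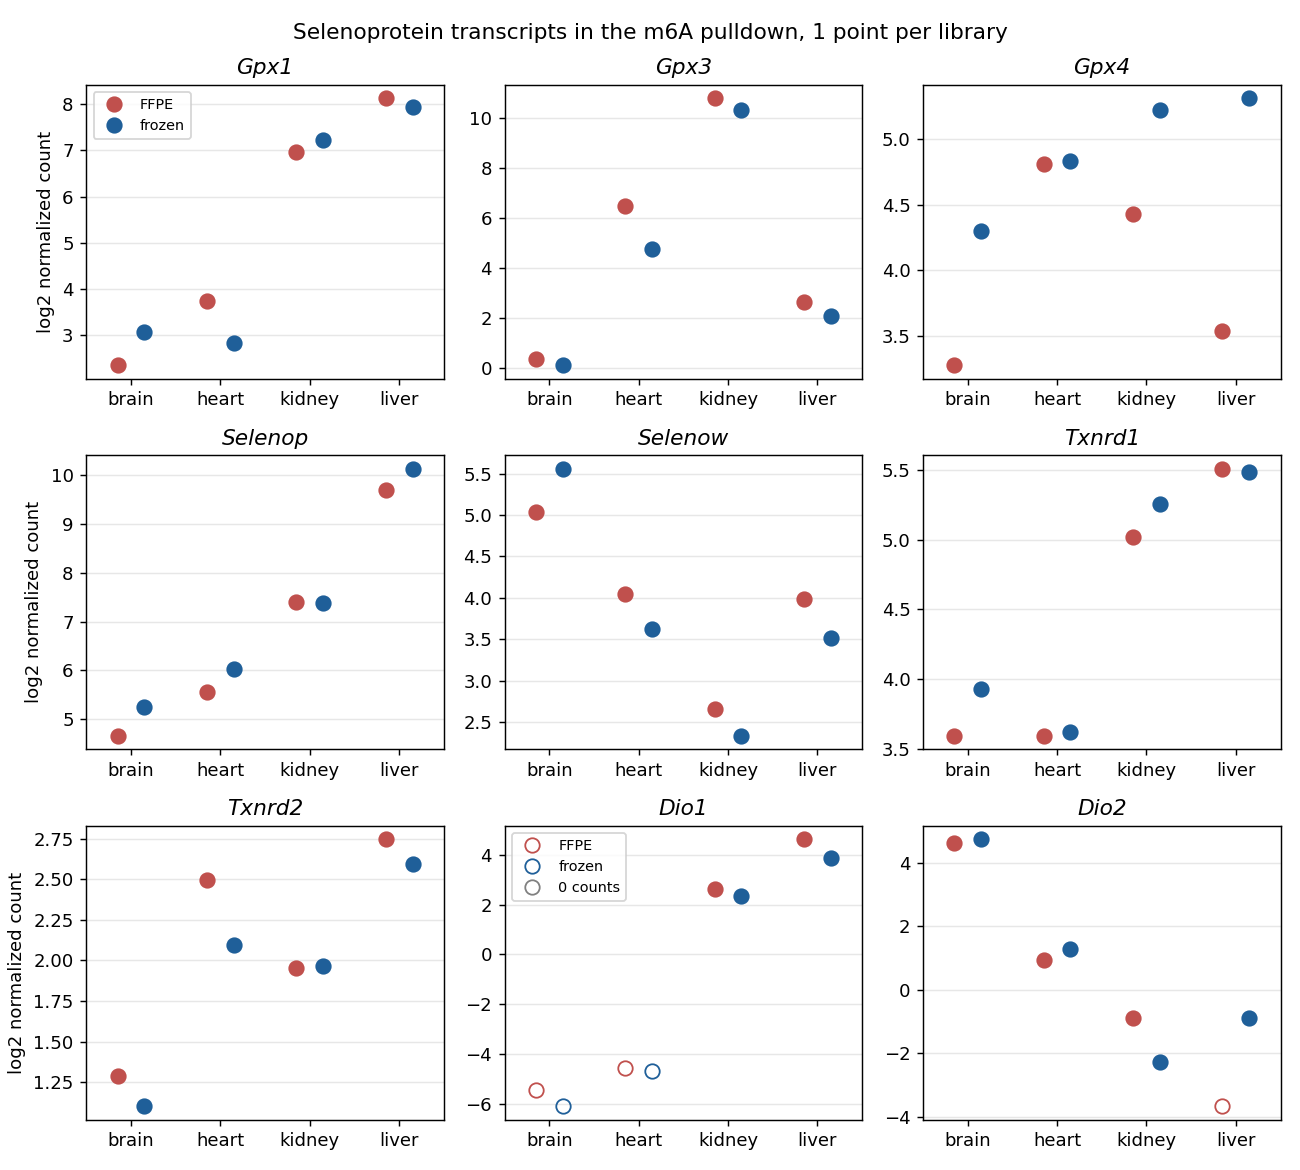
Log2 normalised counts of the 9 genes in the m6A pulldown, 1 panel per gene with its own vertical axis, and 1 point per library, FFPE left of frozen in each organ. Open circles are libraries with 0 counts, where the position is set by the 0.5 added. Gpx3 peaks in kidney, 5 genes peak in liver, and Selenow and Dio2 peak in brain, while the Gpx4 points of liver, 3.54 and 5.31, span those of heart and kidney.

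Each organ was then tested against the mean of the other 3 with limma, in an additive fit of organ and preservation, and p-values were adjusted over all 14864 genes. In brain all 9 members were called, 2 higher and 7 lower, where 56.6% of all tested genes were called, 30.2% higher and 26.4% lower. In heart 5 members were called, 1 higher and 4 lower, against 34% of all genes, 15.9% higher and 18.1% lower. In kidney 7 were called, 5 higher and 2 lower, against 29.7% of all genes, 16.1% higher and 13.5% lower. In liver 7 were called, 5 higher and 2 lower, against 47.2% of all genes, 20.1% higher and 27.2% lower. The 4 comparisons share their libraries and are not independent. Dio1 and Dio2 had passed the filter only through the organs where they were high, so their calls here and below are a description. Scaling by total gene counts in place of the authors' factors moved the median of all genes up in brain (1.22) and kidney (0.52) and down in heart (-0.54) and liver (-1.20). It adds the same amount to every gene of a library, so the distance of a member from that median is kept. Under it the split of members was 2 higher to 4 lower for brain, 0 to 4 for heart, 5 to 2 for kidney and 3 to 4 for liver. Under that scaling the share of all tested genes called higher was 55.4% for brain, 7.45% for heart, 19% for kidney and 7.69% for liver, and the share called lower was 10.5% for brain, 23.6% for heart, 6.82% for kidney and 58% for liver. With counts outside the ribosomal genes the split of members was 2 to 5 for brain and 4 to 4 for liver. Of all 14864 tested genes, 6502 were then called higher and 2815 lower in brain, and 1630 higher and 8007 lower in liver.

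**Figure D2:**
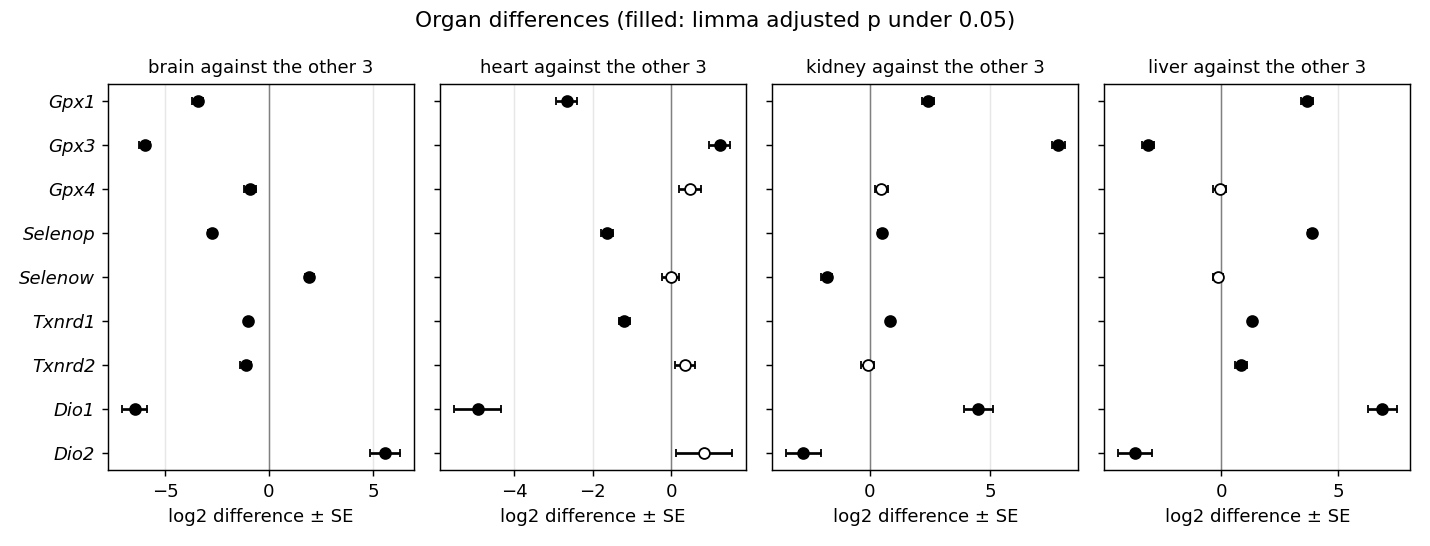
Difference in log2 level of each organ from the mean of the other 3 (horizontal axis, points with the standard error of the limma fit), with genes down the page. Filled points passed an adjusted p of 0.05. Kidney Gpx3 and liver Dio1 lie furthest to the right, at 7.84 and 6.89, and brain Dio1 and Gpx3 furthest to the left, at -6.46 and -5.96. The Dio1 points depend on the 0.5 added to 0 counts (the brain point is at -5.14 with 2 counts added). The brain points of Gpx4, Txnrd1 and Txnrd2 and the liver point of Txnrd2 change sign under scaling by total gene counts.

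Neighbouring organs in each gene's order of mean levels were compared in the same fit. Of the 26 neighbouring pairs with a count in either organ, 13 passed. No share over all genes was computed for neighbouring pairs, which were ordered by these same means, so this count is a description. All 3 steps passed for Gpx3 and for Selenop, and none passed for Gpx4 and Txnrd2. Over all 6 organ pairs, the members called were 6 of 9 for brain against heart (45.5% of all genes), 8 for brain against kidney (47.6%) and 8 for brain against liver (57.1%). They were 7 of 9 for heart against kidney (30.2%), 6 for heart against liver (41.5%) and 3 for kidney against liver (28.6%). Without FFPE brain fewer members were called in brain against heart, and fewer of all tested genes too. Fewer members were also called there without FFPE heart. These p-values rest on how far the difference between FFPE and frozen libraries varied between organs. They do not measure the spread between mice within a group.

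Selenop encodes the secreted protein that carries selenium from liver to other organs (chromosome 15, 3270767 to 3280510, GRCm38.p6, as for all positions below). Its log2 level was 9.70 in FFPE liver and 10.13 in frozen liver. It was 7.41 and 7.38 in FFPE and frozen kidney, 5.56 and 6.03 in heart, and 4.66 and 5.24 in brain. The 4 organs did not overlap, with liver at the top and brain at the bottom. Liver exceeded the mean of the other organs by 3.87 ± 0.15 (SE; adjusted p = 1.00e-06), and kidney exceeded it by 0.51 ± 0.15 (adjusted p = 0.0357). The kidney call was lost without FFPE kidney (0.25, adjusted p = 0.546) and also without FFPE brain, FFPE heart or FFPE liver (adjusted p = 0.0539 to 0.0797). Heart differed from the other organs by -1.63 ± 0.15 and brain by -2.75 ± 0.15 (adjusted p = 9.73e-05 and 3.82e-06). Between neighbours, liver lay above kidney (kidney against liver -2.52 ± 0.19, adjusted p = 4.17e-05) and kidney above heart (heart against kidney -1.60 ± 0.19, adjusted p = 0.000349). Brain against heart came to -0.85 ± 0.19 (adjusted p = 0.00628), a step that was lost without FFPE brain (-0.70, adjusted p = 0.0682) and turned to 0.48 under scaling by total gene counts. Hepatocyte markers, at 25520 and 28220 in FFPE and frozen liver, summed to 119 and 197 in FFPE and frozen kidney and to 0.838 to 4.39 in heart and brain. Their part in the kidney level of Selenop was not tested.

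Gpx1, the peroxidase of the cytosol and mitochondria (chromosome 9, 108339080 to 108340342), was high in liver and kidney and low in heart and brain. Its log2 level was 8.12 in FFPE liver and 7.93 in frozen liver, and 6.96 and 7.22 in FFPE and frozen kidney. In heart it was 3.73 in FFPE tissue and 2.83 in frozen tissue, and in brain 2.35 and 3.08. Heart and brain overlapped, and their order was opposite in the 2 preservations. Against the mean of the other organs Gpx1 was higher in liver by 3.67 ± 0.27 (adjusted p = 1.41e-05) and in kidney by 2.42 ± 0.27 (adjusted p = 0.000325). The difference was -2.66 ± 0.27 in heart (adjusted p = 0.000139) and -3.42 ± 0.27 in brain (adjusted p = 1.88e-05). The step between kidney and heart passed (heart against kidney -3.81 ± 0.33, adjusted p = 7.48e-05). The steps at either end did not: kidney against liver was -0.94 ± 0.33 (adjusted p = 0.0641), and brain against heart was -0.57 ± 0.33 (adjusted p = 0.189). Kidney against liver passed when any 1 of the 4 brain and heart libraries was left out (adjusted p = 0.0166 to 0.0375), and turned to 0.36 under scaling by total gene counts and 0.18 under quantile normalization. Brain against heart passed without frozen brain (-1.07, adjusted p = 0.0479) or frozen heart (-1.15, adjusted p = 0.0170), and was 0.01 without FFPE heart and 0.75 under scaling by total gene counts.

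Gpx3, the peroxidase that kidney tubules release into plasma (chromosome 11, 54902854 to 54910387), had the widest range of the genes with counts in every library. The level reached 10.80 in FFPE kidney, from 34868 counts, and 10.35 in frozen kidney, from 28514 counts. It was 6.49 and 4.76 in FFPE and frozen heart, 2.64 and 2.08 in liver, and 0.36 and 0.09 in brain, where 27 and 36 counts stood behind it. No 2 organs overlapped. Kidney exceeded the mean of the other organs by 7.84 ± 0.26 (adjusted p = 4.64e-06), heart exceeded it by 1.24 ± 0.26 (adjusted p = 0.00714), liver differed by -3.11 ± 0.26 (adjusted p = 2.99e-05) and brain by -5.96 ± 0.26 (adjusted p = 1.86e-06). Each step of the order passed: heart against kidney was -4.95 ± 0.32, heart against liver 3.26 ± 0.32 and brain against liver -2.14 ± 0.32 (adjusted p = 1.75e-05, 8.11e-05 and 0.000552). The heart call rested on the FFPE library, since without it the difference was 0.59 (adjusted p = 0.107), and it was 0.70 (adjusted p = 0.184) under scaling by total gene counts. Brain against liver was -0.32 (adjusted p = 0.574) under that scaling. Proximal tubule markers summed to 2275 in FFPE kidney and 1381 in frozen kidney, and to 1.44 to 7.42 in the other 6 libraries. Of their 5 markers, Slc5a2 was at 0 in both brain libraries and 3 were at 0 in FFPE heart. The part of tubule cells in the Gpx3 differences was not tested.

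Gpx4, which reduces lipid peroxides in membranes and holds back ferroptosis (chromosome 10, 80047166 to 80056439), varied least between organs among the 3 peroxidases. Its log2 level was 4.81 in FFPE heart and 4.83 in frozen heart, 4.43 and 5.22 in FFPE and frozen kidney, 3.54 and 5.31 in liver, and 3.28 and 4.30 in brain. Liver spanned the levels of heart and kidney, and frozen brain lay above FFPE liver. Brain was the 1 organ called, at -0.90 ± 0.28 against the mean of the others (adjusted p = 0.0233), but at 0.32 under scaling by total gene counts. Without FFPE brain the adjusted p was 0.168 and without frozen brain 0.104. No step between neighbours passed: heart against kidney was 0.00 ± 0.35, heart against liver 0.40 ± 0.35 and brain against liver -0.63 ± 0.35 (adjusted p = 0.995, 0.396 and 0.147). Brain against liver passed without FFPE liver (-1.22, adjusted p = 0.0156) and with centring on medians (-0.96, adjusted p = 0.0463), and in the opposite direction under scaling by total gene counts (1.18, adjusted p = 0.0312), and heart against liver passed without frozen liver (0.98, adjusted p = 0.0447).

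Txnrd1, the thioredoxin reductase of the cytosol and a known NRF2 target (chromosome 10, 82833951 to 82897724), had levels of 5.51 in FFPE liver and 5.48 in frozen liver. It had 5.02 and 5.26 in FFPE and frozen kidney, 3.59 and 3.93 in brain, and 3.59 and 3.62 in heart. Liver and kidney formed a high pair and brain and heart a low pair, with no overlap between the pairs. Liver was higher than the mean of the others by 1.33 ± 0.15 (adjusted p = 0.000133), kidney by 0.85 ± 0.15 (adjusted p = 0.00309), heart differed by -1.19 ± 0.15 (adjusted p = 0.000442), and brain differed by -0.99 ± 0.15 (adjusted p = 0.000570), which turned to 0.23 under scaling by total gene counts. Liver kept 0.12 (adjusted p = 0.796) under that scaling. The kidney call was lost without FFPE kidney (adjusted p = 0.0509) or frozen kidney (adjusted p = 0.0770). The step between the pairs passed (brain against kidney -1.38 ± 0.18, adjusted p = 0.000357) but not under scaling by total gene counts (-0.86, adjusted p = 0.187). Within the pairs, kidney against liver was -0.36 ± 0.18 (adjusted p = 0.186) and brain against heart 0.15 ± 0.18 (adjusted p = 0.520). Both of these moved with the scaling. Brain against heart passed at 1.47 under scaling by total gene counts (adjusted p = 0.00935) and at 0.63 with counts outside the ribosomal genes (adjusted p = 0.0214). Kidney against liver passed at 0.55 with counts outside the ribosomal genes (adjusted p = 0.0345) and, in the opposite direction, at -0.54 with centring on medians (adjusted p = 0.0431).

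Txnrd2, the reductase of mitochondria (chromosome 16, 18426417 to 18479073), stayed within a narrow range on few counts, 42 to 85 per library. The levels were 2.75 in FFPE liver and 2.59 in frozen liver, 2.49 and 2.10 in FFPE and frozen heart, 1.95 and 1.96 in kidney, and 1.29 and 1.10 in brain. Brain lay below every other library and liver above every other. Liver was higher than the mean of the others by 0.85 ± 0.26 (adjusted p = 0.0240), which turned to -0.35 under scaling by total gene counts, and brain was lower, at -1.11 ± 0.26 (adjusted p = 0.00559), which turned to 0.11. The liver call was lost without FFPE liver, frozen liver, FFPE kidney or frozen kidney (adjusted p = 0.0553 to 0.0988), and the brain call without FFPE brain (adjusted p = 0.0531). None of the 3 steps passed (heart against liver -0.37 ± 0.31, heart against kidney 0.34 ± 0.31, and brain against kidney -0.76 ± 0.31, with adjusted p = 0.383, 0.474 and 0.0761). Brain against kidney passed under quantile normalization, centring on medians, quality weights and voom weights (adjusted p = 0.0276 to 0.0424). Under the other alternatives it did not pass. The difference ran from -0.98 to -0.24 over all alternatives, so some of them brought it nearer to no difference.

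The deiodinases divided the organs between them. Dio1 encodes the enzyme through which liver and kidney convert and clear thyroid hormones (chromosome 4, 107291465 to 107307168). It had 155 counts in FFPE liver and 147 in frozen liver, and 118 and 109 in FFPE and frozen kidney, while all 4 heart and brain libraries had 0. The log2 levels were 4.62 and 3.88 in FFPE and frozen liver and 2.60 and 2.32 in kidney. Against the highest floor of the 4 empty libraries (3 counts per library), liver was at least 94.9-fold higher in FFPE tissue and at least 56.8-fold higher in frozen tissue. Kidney was at least 23.5-fold and 19.3-fold higher. These bounds hold for the authors' scaled sizes alone and were not computed under another scaling. The scaled size over recovered gene counts was 0.43 in FFPE liver and 2.24 in FFPE brain. The fitted differences of 6.89 ± 0.61 in liver, 4.51 ± 0.61 in kidney, -4.94 ± 0.61 in heart and -6.46 ± 0.61 in brain (adjusted p = 3.69e-05, 0.000852, 0.000414 and 4.67e-05) depend on the 0.5 added to 0 counts and are no measure of size. Liver and kidney did not overlap, but kidney against liver was -1.78 ± 0.74 and did not pass (adjusted p = 0.111). It passed with voom weights, without a variance trend, with 2 counts added and without both heart libraries (adjusted p = 0.000345 to 0.0494). Under the other alternatives it did not pass. The difference ran from -1.97 to -0.49 over all alternatives, so some of them brought it nearer to no difference. The step from heart to kidney passed (heart against kidney -7.08 ± 0.74, adjusted p = 0.000198), and heart and brain, with 0 counts each, have no order.

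Dio2 encodes the enzyme that makes active thyroid hormone inside tissues and is known from glia in brain (chromosome 12, 90724552 to 90739038). Its level was 4.62 in FFPE brain and 4.74 in frozen brain, from 527 and 916 counts. It was 0.95 and 1.28 in FFPE and frozen heart, from 22 and 31 counts. Kidney had 10 counts in FFPE tissue and 4 in frozen tissue, and liver had 0 and 5, so both organs were close to the limit of detection. Brain lay above heart and heart above kidney and liver with no overlap, while kidney and liver overlapped. With the authors' scaling, brain stood at least 51.8-fold (FFPE) and 56.5-fold (frozen) above the floor of FFPE liver. Brain was higher than the mean of the others by 5.59 ± 0.72 (adjusted p = 0.000250), kidney differed by -2.76 ± 0.72 (adjusted p = 0.0206) and liver by -3.67 ± 0.72 (adjusted p = 0.00323), with the same limit on their size. The kidney call was lost without frozen kidney (-1.53, adjusted p = 0.313), FFPE brain (adjusted p = 0.0637) or frozen brain (adjusted p = 0.0508). Brain against heart was 3.56 ± 0.89 (adjusted p = 0.0108), and it was lost without any 1 of the brain and heart libraries (adjusted p = 0.0533 to 0.0980). Heart against kidney was 2.70 ± 0.89 (adjusted p = 0.0489), lost without any 1 of the brain and heart libraries or frozen kidney (1.47 without frozen kidney). That call was also lost under scaling by total gene counts (1.91, adjusted p = 0.0701). The same held with counts outside the ribosomal genes (2.27, adjusted p = 0.0779) and with no filter (adjusted p = 0.0614). Kidney against liver was 0.68 ± 0.89 (adjusted p = 0.628). It passed at 1.97 under scaling by total gene counts (adjusted p = 0.0377) and turned to -0.33 under quantile normalization. Astrocyte markers summed to 941 in FFPE brain and 1065 in frozen brain. They summed to 6.79 in FFPE heart and 45.0 in frozen heart, and to 14.2 to 95.1 in kidney and liver. All 5 had a count in frozen heart, and Gfap was at 0 in FFPE kidney. Their part in the Dio2 levels was not tested.

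Selenow, a small selenoprotein best known from muscle and brain (chromosome 7, 15917208 to 15922371), was highest in brain and lowest in kidney. Its level was 5.04 in FFPE brain and 5.56 in frozen brain, 4.05 and 3.62 in FFPE and frozen heart, 3.99 and 3.51 in liver, and 2.66 and 2.33 in kidney. Brain lay above and kidney below all other libraries, and heart and liver overlapped. The difference from the other organs was 1.94 ± 0.22 in brain (adjusted p = 0.000129) and -1.79 ± 0.22 in kidney (adjusted p = 0.000563). Brain against heart was 1.46 ± 0.27 (adjusted p = 0.00269), and heart against liver was 0.08 ± 0.27 (adjusted p = 0.831). Kidney against liver was -1.25 ± 0.27 (adjusted p = 0.00882), which was lost without FFPE kidney, frozen kidney or FFPE liver (adjusted p = 0.0521 to 0.0765) and turned to 0.04 under scaling by total gene counts.

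The second comparison asked whether FFPE tissue gave the same levels as frozen tissue, with the 4 organs as blocks. No member was called (limma), and 0.00673% of all genes were, which is 1 gene, Xist. At an unadjusted p under 0.05 there were 3 of 9 members, Gpx3, Gpx4 and Selenop, against 18.6% of all tested genes. No member was called with voom weights or under any other alternative run, while that count over all genes went from 0 to 418. With the authors' scaling Gpx4 was lower in FFPE tissue in 4 of 4 organs, a pattern shown by 13.7% of all genes, with a fitted difference of -0.90 ± 0.24 (adjusted p = 0.146). Gpx3 was higher in 4 of 4, as were 13.7% of all genes, with 0.75 ± 0.23 (adjusted p = 0.166). Selenop differed by -0.37 ± 0.13 (adjusted p = 0.208) and was lower in 3 of 4. The remaining differences were 0.03 ± 0.23 for Gpx1, 0.18 ± 0.19 for Selenow, -0.14 ± 0.13 for Txnrd1 and 0.18 ± 0.22 for Txnrd2 (adjusted p = 0.957, 0.639, 0.569 and 0.684). Those of Dio1 and Dio2, 0.46 ± 0.52 and -0.46 ± 0.63 (adjusted p = 0.657 and 0.716), include libraries at 0 counts.

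Within an organ, each FFPE library was set against its frozen library as a ratio of scaled levels with an exact 95% Clopper-Pearson interval. Such intervals account for nothing but counting error, PCR copies being indistinguishable from separate molecules here, and no test between preservations is possible there. Of the 34 pairs of member and organ with a count, 7 had an interval above 0 (20.7% of such pairs over all tested genes) and 11 an interval below 0 (19.3% over all tested genes). The Gpx4 log2 ratio was -1.78 in liver (-2.16 to -1.42), -1.02 in brain (-1.25 to -0.79), -0.79 in kidney (-0.96 to -0.62) and -0.02 in heart (-0.24 to 0.20). Heart was the 1 organ whose Gpx4 interval held 0, and its ratio was 0.33 (0.11 to 0.55) under scaling by total gene counts. Gpx3 was higher in FFPE heart by 1.73 (1.56 to 1.91) and in FFPE kidney by 0.46 (0.44 to 0.48), the kidney ratio being -0.17 under scaling by total gene counts, and its intervals held 0 in brain and in liver, where the ratio of 0.56 was -0.10 under that scaling. Erythroid markers in the same pair of hearts summed to 194 in FFPE and 17.0 in frozen tissue, and endothelial markers to 265 in FFPE and 209 in frozen tissue, and their part in the Gpx3 ratio was not tested. Selenop was at -0.59 in brain (-0.73 to -0.44), -0.47 in heart (-0.63 to -0.32) and -0.44 in liver (-0.48 to -0.39), and at 0.03 in kidney (-0.04 to 0.09). Under scaling by total gene counts the Selenop intervals held 0 in brain and heart and excluded it in kidney (-0.60) and liver (-1.10). Txnrd1 was at -0.33 in brain (-0.55 to -0.12), turning to 0.16 under scaling by total gene counts, and at -0.24 in kidney (-0.39 to -0.09). Dio1 in liver was at 0.74 (0.41 to 1.08), and at 0.081 (-0.25 to 0.42) under that scaling. With the authors' scaling every interval of Txnrd2 and Dio2 held 0. Under scaling by total gene counts Txnrd2 was at 0.68 in brain (0.13 to 1.21) and 0.75 in heart (0.21 to 1.30). It was then at -0.64 in kidney (-1.11 to -0.18), and Dio2 was at 0.37 in brain (0.21 to 0.52).

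**Figure D3:**
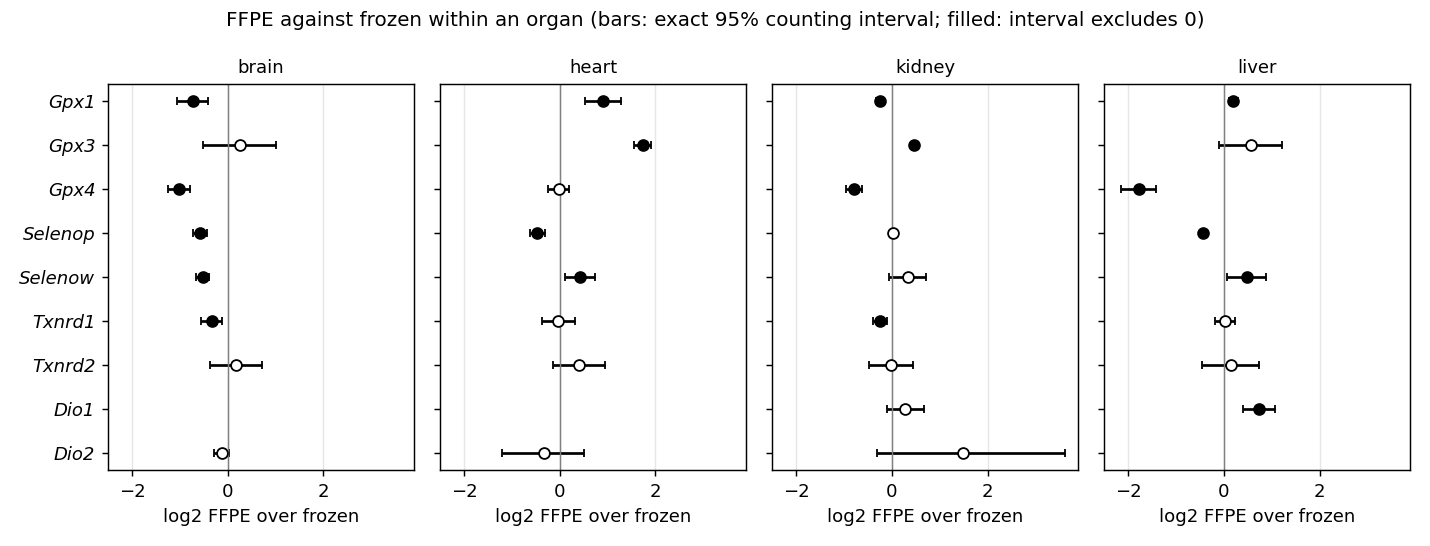
Log2 ratio of FFPE over frozen level within each organ (horizontal axis), with exact 95% counting intervals, genes down the page. Filled points have intervals that exclude 0, and pairs with 0 counts in a library are not drawn. Gpx4 lies left of 0 in brain, kidney and liver and at -0.02 in heart (0.33 under scaling by total gene counts), and the heart Gpx3 ratio of 1.73 is the highest filled point.

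The members were then set among the genes around them, in lists that overlap with them in part. The listed genes given with a difference and its SE passed the adjusted threshold of 0.05 in that organ, and no gene of these lists was called between FFPE and frozen tissue. Of the 24 listed selenoprotein genes 21 were tested, with Gpx2, Dio3 and Selenov below the filter. In liver 10 of the 21 were higher and 4 lower (5 and 7 under scaling by total gene counts), with a median difference of 0.53 against -0.18 over all genes. The share of all genes called in each organ, under either scaling, is as given above and applies to each list. In kidney 7 were higher and 3 lower, with a median of 0.48. In heart 2 were higher and 11 lower (0 and 10 under that scaling), with a median of -0.49 against -0.15. In brain 5 were higher and 11 lower (8 and 6 under scaling by total gene counts), with a median of -0.81 against 0.07. Sephs2, itself a selenoprotein and the enzyme that makes the selenium donor, was higher in liver by 4.36 ± 0.17 and in kidney by 1.62 ± 0.17, and was at -3.18 ± 0.17 in heart. Msrb1, a methionine sulfoxide reductase, was higher in liver by 2.79 ± 0.22. Selenom, a selenoprotein of the endoplasmic reticulum, was higher in brain by 3.59 ± 0.50 and at -5.49 ± 0.50 in liver, a size that depends on the 0.5 added because FFPE liver had 0 counts.

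Among the other glutathione peroxidases, Gpx6 passed the filter only through kidney and Gpx7 only through heart, so that each had to be higher there, and their values are a description. Gpx6 had log2 levels of 0.82 in FFPE kidney and 1.65 in frozen kidney, with -0.86 the highest elsewhere. Gpx7 had 0.41 in FFPE heart and 1.19 in frozen heart, with -0.70 the highest elsewhere. Gpx8, a peroxidase of the endoplasmic reticulum, was higher in heart by 1.72 ± 0.57 (adjusted p = 0.0460). That call was lost under scaling by total gene counts (adjusted p = 0.214) and without any 1 library but frozen liver (adjusted p = 0.0503 to 0.452, with a difference of 1.02 without FFPE heart). Over the 6 tested genes of this family of 8, 3 were higher and 0 lower in kidney, and 3 and 1 in heart (0 and 1 under scaling by total gene counts), Gpx6 and Gpx7 included. In liver 1 was higher and 2 lower (1 and 4 under that scaling), and in brain 0 and 4 (0 and 2).

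For the supply of selenocysteine, 9 genes of its synthesis and insertion were tested. In liver 5 were higher and 0 lower (1 and 2 under scaling by total gene counts), in kidney 2 and 0, in heart 1 and 6 (0 and 6), and in brain 1 and 4 (2 and 1 under that scaling). Scly, which frees selenium from selenocysteine, was higher in liver by 2.21 ± 0.28, and Sepsecs, which builds selenocysteine on its transfer RNA, by 2.31 ± 0.25. Under scaling by total gene counts the adjusted p was 0.0532 for Scly and 0.0504 for Sepsecs. Each of the 3 listed receptors of the lipoprotein receptor family was called higher in a different organ. Lrp8 was higher in brain by 5.33 ± 0.48 (adjusted p = 4.01e-05), and Lrp2, the megalin of the proximal tubule and 1 of its 5 markers here, was higher in kidney by 9.25 ± 0.41 (adjusted p = 8.81e-06). Lrp1 was higher in liver by 2.23 ± 0.15 (adjusted p = 9.65e-06). Of the 3, 1 was higher and 2 lower in liver, 1 and 2 in kidney (1 and 1 under that scaling), 1 and 1 in brain (2 and 1), and 0 and 2 in heart.

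For glutathione, the substrate of the peroxidases, 11 of 12 genes of synthesis and recycling were tested. In kidney 8 were higher and 0 lower, in liver 6 and 2 (1 and 5 under scaling by total gene counts), in heart 1 and 6 (0 and 8), and in brain 2 and 8 (2 and 1 under that scaling). Ggt1, which breaks down glutathione outside cells and is among those 8, passed the filter only through kidney. It had log2 levels of 6.86 in FFPE kidney and 7.30 in frozen kidney and lay below 0 in the 6 other libraries. Gss, glutathione synthetase, was higher in kidney by 3.45 ± 0.23. Gclc, the catalytic subunit of the rate-limiting ligase, was higher in liver by 2.97 ± 0.14 and at -3.04 ± 0.14 in heart. Slc7a11, the cystine importer, was higher in brain by 4.76 ± 1.09 and was at 2.40 (adjusted p = 0.161) without FFPE brain. The size of this difference depends on the 0.5 added, since FFPE heart and FFPE liver had 0 counts.

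Among 12 genes of the thioredoxin and peroxiredoxin system, the partners of Txnrd1 and Txnrd2, 8 were higher and 0 lower in liver (2 and 3 under scaling by total gene counts). In kidney 2 were higher and 1 lower (4 and 0), in heart 2 and 5 (1 and 5), and in brain 1 and 7 (2 and 1 under that scaling). Prdx6 was higher in liver by 2.23 ± 0.14, and Prdx1 by 2.08 ± 0.27 (0.87, adjusted p = 0.0565, under that scaling). Txnip, which binds thioredoxin, was at -4.06 ± 0.19 in brain. Of catalase and the 3 superoxide dismutases, 2 were higher and 0 lower in liver (2 and 2 under that scaling) and in kidney, 1 and 3 in heart (0 and 3), and 0 and 4 in brain (0 and 2 under that scaling). Cat was higher in liver by 4.33 ± 0.18 and at -4.58 ± 0.18 in brain, and Sod3, the secreted dismutase, was higher in kidney by 3.80 ± 0.21.

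Of 7 genes of the NRF2 pathway, to which Txnrd1 answers, 4 were higher and 0 lower in liver (0 and 1 under scaling by total gene counts) and 2 and 1 in kidney (3 and 0). In heart 2 were higher and 1 lower (0 and 1), and in brain 0 and 5 (1 and 3). Nfe2l2, which encodes NRF2, was at -2.72 ± 0.18 in brain, and its targets Nqo1 and Hmox1 were at -2.73 ± 0.40 and -2.85 ± 0.48. Maff, a small partner factor, was higher in heart by 2.24 ± 0.56, a call lost without FFPE heart (1.43, adjusted p = 0.257) and under scaling by total gene counts (adjusted p = 0.0644).

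Among 11 genes of thyroid hormone transport, receptors and targets, whose hormone the deiodinases act on, 7 were higher and 2 lower in liver (4 and 4 under scaling by total gene counts). In kidney 2 were higher and 4 lower (2 and 3), in heart 1 and 5 (0 and 6), and in brain 4 and 5 (5 and 3). In brain, where Dio2 was high, the transporter Slco1c1 was higher by 4.95 ± 0.84 (with 0 counts in FFPE kidney and FFPE liver), the receptor Thra by 2.26 ± 0.18 and the target Hr by 3.33 ± 0.51. In liver, where Dio1 was high, the target Thrsp was higher by 5.65 ± 0.28 and the transporter Slc16a10 by 2.89 ± 0.25.

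**Figure D4:**
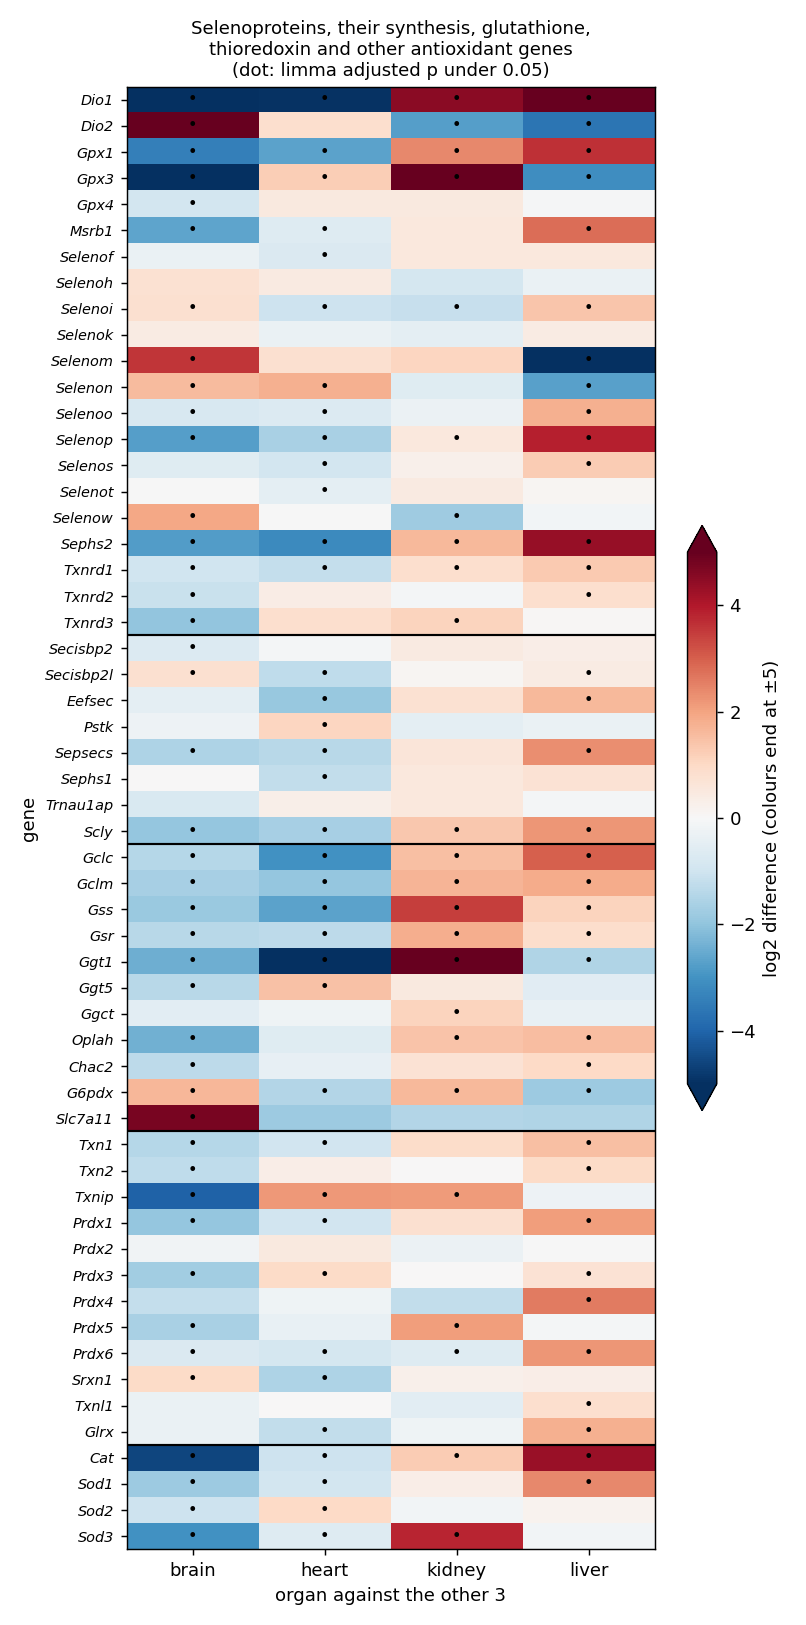
Differences in log2 level of each organ from the mean of the other 3 for 56 tested genes, with selenoproteins at the top, then selenocysteine synthesis, glutathione, thioredoxin, and catalase with superoxide dismutases, set apart by lines. Red is higher and blue lower, colours end at ±5, and a dot marks an adjusted p under 0.05. Brain shows mostly blue and liver mostly red, a split that shifts under scaling by total gene counts, which moves the median of all genes by 1.22 in brain and -1.20 in liver.

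Across the 8 libraries the members' levels moved in blocks. Pearson's r was 0.988 between Dio1 and Gpx1, 0.982 between Gpx1 and Txnrd1, 0.924 between Dio1 and Selenop, -0.897 between Dio1 and Dio2, and -0.873 between Gpx3 and Selenow. The r of Gpx4 with the other members ran from -0.573 for Selenow to 0.475 for Gpx3. These are descriptions over 4 organs seen in pairs of libraries that share organ, depth and preservation, and the values of Dio1 and Dio2 include libraries at 0 counts. Among the 4419 other tested genes with a mean log2 level of at least 3, those most like a member were found by the same r over 8 libraries. For Gpx1 they were Prodh (0.994), Grhpr (0.994) and Aco1 (0.988), and for Dio1 Aco1 (0.994) and Grhpr (0.991). For Txnrd1 they were Fah (0.994), Gclm (0.991), the modifier subunit of the glutathione ligase, and Rab8a (0.990). Selenop was most like Man1a (0.995), Tob1 (0.993) and Mcfd2 (0.992), and Gpx3 most like Igfbp7 (0.987), Dab2 (0.976) and Kifc3 (0.975). Dio2 was most like Dlgap4 (0.986), Appl1 (0.979) and Klhl7 (0.978), Selenow most like Zfp260 (0.981), Smap2 (0.981) and Ywhag (0.977), and Txnrd2 most like Elk4 (0.990), Zadh2 (0.983) and Map2k3 (0.981). Gpx4 was like Dtnbp1 (0.949) and Rap1b (0.934).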

How the data were processed

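RNA pulled down with an m6A antibody from brain, heart, kidney and liver, FFPE or frozen, was analysed as 8 libraries, 1 per group. Per the submitters' processing notes, HISAT2, featureCounts and limma were used with mm10; their versions and roles are not given in the sources used here. The authors deposited log2 values per gene, which the numbers themselves show to be log2 CPM against a scaled library size, with 0.5 added to each count. Undoing this gave whole counts for 100.0% of values (within 0.001, relative above 10000 counts). Each group has 2 runs in the labels but 1 column in the table, and the labels leave unsaid if the runs were merged. The labels do not say that runs or organs came from separate mice, so p-values measure the spread between these libraries, which may be technical. Input libraries, and 8 columns of a second table that match no listed sample, were not used here.

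Genes with log2 above 0 in at least 2 libraries were tested (14864 of 27179). Dio1 passed through its 4 kidney and liver libraries and Dio2 through its 4 brain and heart libraries. limma 3.58.1 (R 4.3.3; lmFit and eBayes with a trend) fitted organ and preservation together, with 3 residual degrees of freedom, and Benjamini-Hochberg adjustment ran over all tested genes at 0.05. An interaction could not be fitted with 1 library per group. Counting intervals, promoter searches and figures used Python 3.11.15 with scipy 1.17.1, pandas 2.3.3 and matplotlib 3.10.9. Alternatives changed the normalization, the filter, the weights, the variance trend, the count added and the libraries included.

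The members and the lists were chosen with earlier results of these data known. All 9 members are named, with the 3 genes of highest Pearson's r for each among genes with a mean log2 of at least 3. Some of the genes these rules name are not reported here. The other list genes given with values were chosen after their values were seen. The pathway lists were selenoproteins, glutathione peroxidases, selenocysteine synthesis and insertion, selenoprotein P receptors, glutathione, thioredoxin with peroxiredoxin, catalase with superoxide dismutases, NRF2 and thyroid hormone.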

Additional observations from a re-analysis of the deposited data

Results flagged for a closer look

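With the authors' scaling, Gpx1 and Selenow had FFPE over frozen ratios of opposite sign in different organs, each with a counting interval that excluded 0. Whether the organs differ in this was not tested, since each holds 1 FFPE and 1 frozen library. No share of all tested genes with such opposite signs was computed, so the pattern is a description. Of all pairs of tested gene and organ, 20.7% had an interval above 0 and 19.3% an interval below 0. The log2 ratio of Gpx1 was -0.73 in brain (-1.06 to -0.41) and -0.255 in kidney (-0.33 to -0.18), but 0.90 in heart (0.52 to 1.29) and 0.196 in liver (0.11 to 0.28). The liver ratio was -0.46 under scaling by total gene counts and -0.07 with counts outside the ribosomal genes. Selenow had -0.522 in brain (-0.65 to -0.39), against 0.429 in heart (0.12 to 0.74) and 0.475 in liver (0.07 to 0.88). Its liver ratio was -0.18 (-0.59 to 0.22) and its brain ratio -0.03 (-0.16 to 0.10) under scaling by total gene counts, so that the heart interval alone excluded 0 for Selenow. The Gpx1 brain ratio was then -0.24 (-0.57 to 0.085), while its heart ratio of 1.25 and its kidney ratio of -0.88 kept intervals on opposite sides of 0. Under that scaling Gpx3, Gpx4 and Txnrd2 also had intervals on opposite sides of 0. Their ratios were 2.08, 0.33 and 0.75 in heart and -0.17, -1.42 and -0.64 in kidney.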

How the results depend on the processing

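Counts of called genes and members are given below and are not in the following totals. Of the single results recomputed under the alternatives, 1645 kept their direction and their side of the threshold or size. Another 79 lost the call, 28 gained it, 53 changed sign and 29 ratios within an organ moved. The cause was not tested, except that fewer or more genes are tested under another filter and fewer libraries remain when 1 is left out.

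Between FFPE and frozen tissue, 1 gene was called, and 28 under quantile normalization, 209 under scaling by total gene counts, 43 with counts outside the ribosomal genes, 10 with no filter, 174 with library quality weights, 418 with voom weights, 0 without the variance trend, 105 with 2 counts added and 4 without both heart libraries. Leaving out 1 library gave 1 to 5. Brain against the other organs had 8419 called genes, 13329 with no filter and 5591 with the stricter filter. Brain against kidney had 7075 and 4696 with the stricter filter, and brain against liver 8491 and 13040 with no filter. Kidney against liver had 4245 called genes, 7531 under scaling by total gene counts, 8115 with counts outside the ribosomal genes and 6655 with no filter. The members called there were 3, and 5 under centring on medians, with voom weights, with 2 counts added and without both heart libraries.

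Under quantile normalization the sign changed for Gpx1 between FFPE and frozen tissue (-0.022), Txnrd1 in brain against heart (-0.19), Gpx4 in heart against kidney (0.032) and, in kidney against liver, Gpx1 (0.18), Txnrd1 (0.016) and Dio2 (-0.33). Centring on medians gave -0.015 for Gpx1 in FFPE tissue, -0.16 for Txnrd1 in brain against heart and 0.17 for Gpx4 in heart against kidney. Scaling by total gene counts gave -0.083 for Gpx1 in FFPE tissue. In brain against the other organs it gave 0.32 for Gpx4, 0.23 for Txnrd1 and 0.11 for Txnrd2, and in liver -0.35 for Txnrd2. In brain against heart it gave 0.75 for Gpx1, 0.48 for Selenop and 0.18 for Dio1, and in brain against liver 1.18 for Gpx4. Txnrd2 was -0.46 in heart against kidney and 0.12 in heart against liver. In kidney against liver Gpx1 was 0.36, Selenow 0.044 and Txnrd1 0.94. Within organs it gave -0.46 for Gpx1 and -0.18 for Selenow in liver, -0.17 for Gpx3 in kidney and 0.16 for Txnrd1 in brain. With counts outside the ribosomal genes Gpx1 was -0.12 in FFPE tissue and -0.074 within liver, Gpx4 was 0.31 in brain against liver, Txnrd2 was -0.10 in heart against kidney and 0.10 in heart against liver, and Txnrd1 was 0.55 in kidney against liver. Gpx1 in FFPE tissue was -0.10 with quality weights, -0.023 with voom weights and -0.26 without both heart libraries. Dio2 was 0.18 in FFPE tissue with quality weights and -0.19 in kidney against liver with 2 counts added.

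Leaving out 1 library in turn gave 5564 (without FFPE brain) to 8721 called genes in brain against the other organs (8419 with all libraries), 2496 (without FFPE heart) to 5453 in heart (5061), 1639 (without FFPE kidney; 1951 without frozen kidney) to 4738 in kidney (4410), 4115 (without FFPE brain) to 7364 in brain against heart (6757), 2262 (without FFPE kidney; 2562 without frozen kidney, 2948 without FFPE heart) to 5150 in heart against kidney (4489) and 2036 (without FFPE kidney; 2430 without frozen kidney) to 4363 in kidney against liver (4245). Members called were 2 to 6 in brain against heart (6) and 2 to 4 in kidney against liver (3). Differences that changed sign ranged from -0.26 to 0.28 for Gpx1 and -1.08 to 0.31 for Dio2 in FFPE tissue, from -1.15 to 0.0092 for Gpx1 in brain against heart, from -0.59 to 0.58 for Gpx4 in heart against kidney, from -0.19 to 0.98 for Gpx4 and -0.11 to 0.28 for Selenow in heart against liver, and from -0.88 to 2.23 for Dio2 in kidney against liver.

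Without the variance trend, 7 calls of members were lost: Gpx4 in brain, Gpx3 in heart, Selenop and Dio2 in kidney, Selenop in brain against heart, Dio2 in heart against kidney and Selenow in kidney against liver (adjusted p = 0.0566 to 0.161). Gpx4 in brain against liver, at 1.18 under scaling by total gene counts, passed there with the opposite sign.

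No paired analysis was possible because the columns carry no run number and each group has 1 column. Each organ rests on 1 FFPE and 1 frozen library. Dio2 outside brain and Gpx3 in brain and liver rest on fewer than 50 counts a library. The same holds for Txnrd2 in FFPE liver (42 counts) and Dio1 in brain and heart (0 counts).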
